A study of Homo sapiens with 6 samples.

Results

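The genes examined were the D-type cyclins CCND1, CCND2 and CCND3, their kinases CDK4 and CDK6, the CDK inhibitors CDKN1A, CDKN1B, CDKN2A and CDKN2C, and CDK5, a kinase of the same family. Members were taken as every array probe set for which the platform annotation gave 1 gene symbol, and that symbol was in the list of 10. This found 14 probe sets of 9 genes among 22215 probe sets in all. No listed probe set carried CDKN2C alone, and it is not analysed here. RNA came from NCI-H295A, a steroid-producing line from a human adrenocortical carcinoma. Cells of 3 control arrays were left without treatment, and cells of 3 arrays were kept for 18 h with 1 mM 8-Br-cAMP, a membrane-permeable cAMP analogue that activates the pathway used by the hormone ACTH. All cells were grown in medium with low serum, insulin and selenium to near confluence. Everything measured is from 1 tumour line, and nothing in the labels tells whether plates were grown separately. The p-values therefore cover the spread of these arrays, which may be technical.

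D-type cyclins bind CDK4 or CDK6 and start the phosphorylation of the retinoblastoma protein that opens the way from G1 into S phase. Inhibitors of the INK4 class, CDKN2A among them, bind CDK4 and CDK6, and those of the Cip/Kip class, CDKN1A (p21) and CDKN1B (p27), bind cyclin-CDK complexes more broadly. CDK5 is activated by proteins other than cyclins and is best known from neurons. ACTH and cAMP are known to drive steroid synthesis in adrenocortical cells and to slow their division in culture.

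The arrays numbered 1 differed from the others in both groups. The 3'/5' signal ratio of the actin control, which rises when RNA is broken or poorly copied, was 5.72 for control 1, 38.8 for 8-Br-cAMP 1 and between 1.93 and 2.41 for the remaining 4. The ratio of the GAPDH control was 1.79 and 4.29 on these arrays and 1.05 to 1.17 on the rest. The part of RNA quality in the results was not tested, and values without both number 1 arrays are given for the members and the lists. Of 9 adrenocortical markers, such as CYP17A1 and STAR, 8 lay above the filter level, a signal of 45.5, on all 6 arrays. The exception was the ACTH receptor gene MC2R, above it on 4. The summed signal of the 9 was 6356.3 to 22380 in controls, highest on control 1, and 18726.8 to 43859.7 after 8-Br-cAMP. HSD3B2 read 6937.9 on control 1 against 1062.6 and 895.9 on controls 2 and 3, while NR5A1 read 84.1 against 106.0 and 94.5. Why the number 1 arrays differed was not tested. Among markers of other cells, CHGB of the adrenal medulla and DCN and COL1A1 of fibroblasts were above that level on all 6 arrays, and none of the 4 endothelial or 3 measured leukocyte markers was. DBH, LUM, CDH5 and PTPRC were below it on every array. VWF was above it on 4 arrays, PECAM1, TEK and CD3E on 3, and each remaining marker on 1. Summed endothelial signal was 158.0 to 218.9 in controls and 285.7 to 412.6 after 8-Br-cAMP. That rise came from VWF, which read 13.2 to 123.8 in controls and 224.5 to 292.3 after treatment (paired adjusted p = 0.0493). On controls 1 and 2 VWF lay below the filter level (13.2 and 17.8). It entered the test only through its treated arrays, so its difference and p-value rest on dim controls. TEK went the other way, from 60.7 to 106.0 down to 11.3 to 20.7, and it was below the filter and not tested. PECAM1 differed by -0.02 on the log2 scale and CDH5 was below the level on all arrays. The part of these cells in the results was not tested.

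CDKN1A was called higher and CDK5 lower in a fit that paired the arrays by sample number. The planned fit had no such pairing and called neither. No other gene of the group passed either fit with all 6 arrays. The labels do not say that sample numbers pair the arrays, and the data do not tell numbers 2 and 3 apart. CDKN1A was 4.52-fold higher after 8-Br-cAMP, and CDK5 was 3.24-fold lower. Both calls come from the fit with the sample number as a block, the paired fit (limma, Benjamini-Hochberg adjusted p under 0.05), in which each treated array is set against the control array of the same number. In it 2 of 11 tested member probe sets passed, 1 higher and 1 lower, against 3.21% of all 13329 tested probe sets (1.55% higher and 1.66% lower). In the planned fit, which left the block out, limma called none of the 11. There 0% of all probe sets passed, with a smallest adjusted p of 0.0511. At an unadjusted p under 0.05 that fit held 2 of the 11 and 1474 of all probe sets, and an unmoderated test called 1 probe set of all, no member among them. The selection used in the series was a fold of at least 2 and a p under 0.05 before adjustment. Applied here to the limma p-values of the planned fit, over the kept probe sets, it took CDKN1A and CDK5 and 6.6% of all. Control and treated signals did not overlap in 3 of the 11, where 18.5% of all had no overlap, and 6 of the 11 had the same sign in all 3 pairs, against 44.1% of all. Groups without overlap give the same sign in every pair, however the arrays are paired.

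**Figure D1:**
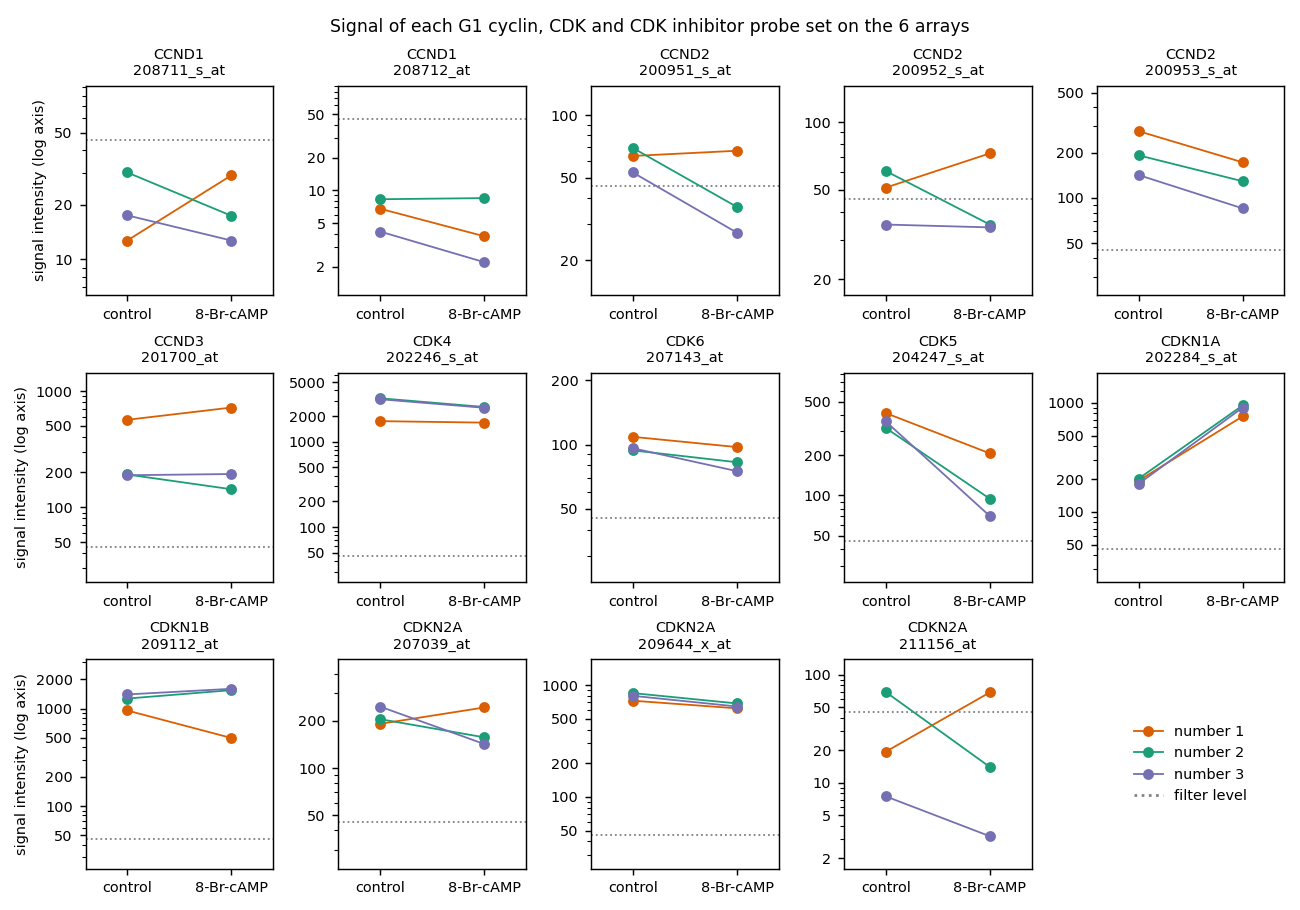
Signal intensity (log axis) of all 14 member probe sets on the 6 arrays, with a line joining the control and the 8-Br-cAMP array of the same number and a dotted line at the filter level of 45.5. The CDKN1A lines rise together from between 180.5 and 201.5 to between 753.3 and 949.3, the CDK5 lines fall, and the number 1 arrays stand apart for CCND3, CDK4 and CDKN1B.

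CDKN1A encodes p21, an inhibitor of cyclin-CDK complexes that halts the cell cycle in response to many signals, p53 among them. Its signal was 193.1, 201.5 and 180.5 on controls 1 to 3 and 753.3, 949.3 and 907.5 on the 8-Br-cAMP arrays of the same numbers. The lowest treated value was far above the highest control value, and within each group the 3 arrays lay close together, the number 1 arrays included. The log2 signal rose from 7.58 ± 0.08 to 9.76 ± 0.18 (SD, n = 3), a log2 difference of 2.18 (95% interval 1.69 to 2.66 in the paired fit, adjusted p = 0.0106). Without the block the interval was 1.62 to 2.74 and the adjusted p 0.0511. The pairs differed by 1.96, 2.24 and 2.33 on the log2 scale, so the rise was of like size in all 3. From arrays 2 and 3 alone the log2 difference was 2.28 (adjusted p = 2.05e-05), in a fit that called 30.8% of all probe sets. CDKN1A passed in all 12 settings fitted with the block (adjusted p 2.95e-08 to 0.0379) and in 8 of 18 without it, among them those without control 1 (adjusted p = 0.0408) and without 8-Br-cAMP 1 (0.0204).

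CDK5 fell in every pair, and most in the pairs with numbers 2 and 3. Its signal was 410.9, 318.3 and 356.0 on controls 1 to 3 and 205.7, 94.5 and 70.2 on 8-Br-cAMP arrays 1 to 3. The groups did not overlap, but 8-Br-cAMP 1 lay well above the other 2 treated arrays. The log2 signal went from 8.49 ± 0.19 to 6.79 ± 0.80 (SD, n = 3), a difference of -1.70 (95% interval -2.42 to -0.98 in the paired fit, adjusted p = 0.0423). Without the block the interval was -2.68 to -0.71 and the adjusted p 0.194. The log2 difference was -1.0 in pair 1, -1.75 in pair 2 and -2.34 in pair 3. The call was lost in 4 of 12 settings with the block: quantile normalization (adjusted p = 0.0501), a common median (0.0749), no intensity trend (0.0823) and both number 3 arrays left out (0.105, log2 difference -1.38). From arrays 2 and 3 alone the log2 difference was -2.05 (adjusted p = 0.000298), in the fit that called 30.8% of all probe sets. Without 8-Br-cAMP 1 it was -2.14 (adjusted p = 0.025), and neither of these fits had a block. CDK5 and CDKN1A are each measured by 1 probe set, so no other probe set could be set beside them.

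**Figure D2:**
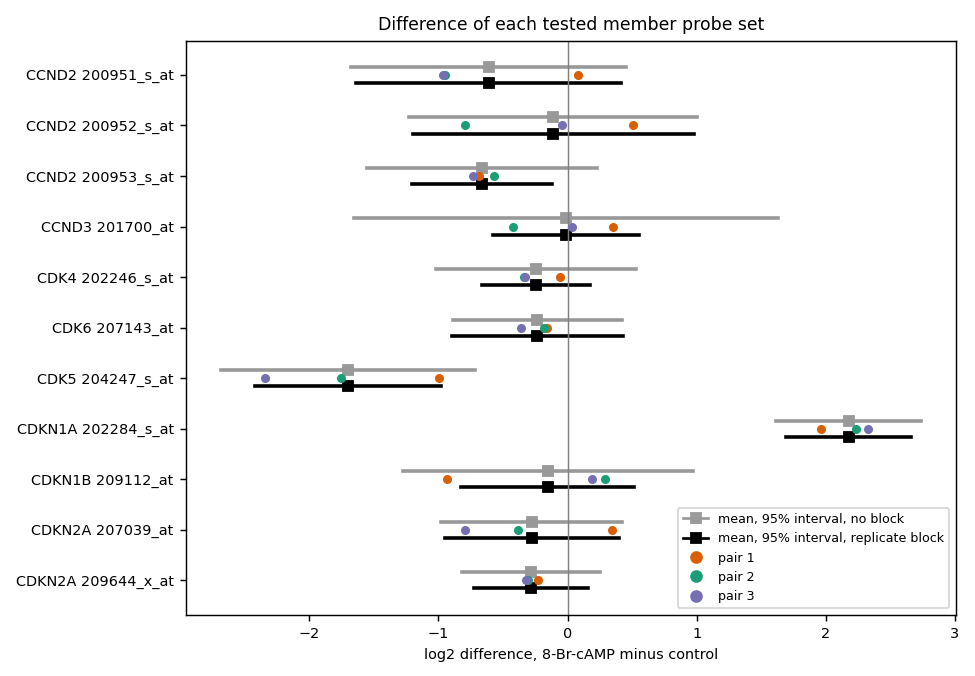
Log2 difference (8-Br-cAMP minus control) of the 11 tested member probe sets: squares with lines give the mean and its 95% interval without (grey) and with (black) the replicate block, and coloured points the 3 pairs. The intervals of CDKN1A (1.69 to 2.66) and CDK5 (-2.42 to -0.98) lie on opposite sides of 0, and of the other 9 only that of CCND2 probe set 200953_s_at leaves out 0 in the paired fit.

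The promoters of CDKN1A and CDK5 are shown because these were the members that passed the paired fit. The 250 bases before the start site are given 5' to 3' on the gene's strand, from RefSeq on GRCh38.p14, with the GC box GGGCGG (either strand), the binding sequence of Sp1-type factors, in capitals. The CDKN1A stretch is chr6:36678464-36678713 (plus strand), and the CDK5 stretch is chr7:151057898-151058147 (minus strand).
CDKN1A: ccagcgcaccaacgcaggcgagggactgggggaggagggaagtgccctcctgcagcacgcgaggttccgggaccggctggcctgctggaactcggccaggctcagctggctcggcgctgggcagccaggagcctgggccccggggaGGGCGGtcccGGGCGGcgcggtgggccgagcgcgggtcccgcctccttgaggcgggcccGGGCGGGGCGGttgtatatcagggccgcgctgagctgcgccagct
CDK5: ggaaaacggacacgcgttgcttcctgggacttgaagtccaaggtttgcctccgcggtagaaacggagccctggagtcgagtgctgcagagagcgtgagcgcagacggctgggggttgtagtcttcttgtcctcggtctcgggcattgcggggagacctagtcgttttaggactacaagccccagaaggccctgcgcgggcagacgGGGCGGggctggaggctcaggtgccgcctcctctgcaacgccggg
The CDKN1A stretch holds 4 matches to GGGCGG, of which the last 2 overlap, and the CDK5 stretch holds 1. Of 35116 RefSeq stretches of this length 42.6% hold at least 1, and this motif was added after the values were seen. The full cAMP response element TGACGTCA, searched on both strands, is in neither gene's window of 300 bases (250 before the start site and 50 after) and in 1.85% of all windows, and its core TGACG, which lies within it, is in neither and in 24.6% of all. RefSeq windows were matched for 8 of the 10 members, and CCND1 and CCND2 were not matched. None of the 14 windows of these 8 genes holds TGACGTCA, and 5 windows, of CDK6, CDKN1B and CDKN2C, hold TGACG. These matches are letters in a window and no measure of binding.

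Among the D-type cyclins, which pass growth factor signals to CDK4 and CDK6, none passed. Both CCND1 probe sets were below the filter level on every array and were not tested. Probe set 208711_s_at read 12.7, 30.2 and 17.5 on controls 1 to 3 and 29.1, 17.4 and 12.7 on 8-Br-cAMP 1 to 3, and 208712_at read 2.2 to 8.5 over the 6 arrays. Such low signals show neither a level nor a direction, and they do not show that the transcript was absent. CCND2, the cyclin D2 gene, has 3 probe sets, all tested. The brightest, 200953_s_at, read 277.3, 191.8 and 142.0 on controls and 172.3, 129.1 and 85.3 on 8-Br-cAMP arrays. It was lower in each pair (log2 differences -0.69, -0.57 and -0.74), while the groups overlapped. The mean difference was -0.66 (95% interval -1.20 to -0.12, paired adjusted p = 0.164). It passed in 1 of 12 settings with the block, the one without both number 1 arrays (-0.65, adjusted p = 0.0353). That fit called 4680 of all 13329 probe sets. The other CCND2 probe sets were near the filter level, with signals of 27.1 to 69.6 for 200951_s_at (log2 difference -0.61, paired adjusted p = 0.463) and 34.0 to 72.6 for 200952_s_at (-0.11, adjusted p = 0.921). The sign of 200952_s_at turned under quantile normalization and under a common median. CCND3, the cyclin D3 gene, read 565.0, 191.2 and 188.4 on controls and 720.4, 142.7 and 193.0 on 8-Br-cAMP arrays. Its number 1 arrays were far above the rest in both groups, and the pairs went both ways, with log2 differences of 0.35, -0.42 and 0.04. The mean log2 difference was -0.01 (95% interval -0.58 to 0.56, paired adjusted p = 0.983), and its sign turned with the scaling.

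The kinase partners CDK4 and CDK6 did not pass with all 6 arrays. CDK4 read 1742.2, 3230.8 and 3147.4 on controls and 1674.2, 2554.1 and 2499.5 after 8-Br-cAMP. The number 1 arrays were the lowest of both groups, and the treated array was lower in all 3 pairs, by the least in pair 1. The log2 difference was -0.24 (95% interval -0.66 to 0.18, paired adjusted p = 0.473), with -0.06, -0.34 and -0.33 in the 3 pairs. From arrays 2 and 3 alone CDK4 passed at -0.34 (adjusted p = 0.0298), in a fit that called 30.8% of all probe sets. CDK6 read 108.8, 94.0 and 96.2 on controls and 97.4, 82.7 and 75.1 after 8-Br-cAMP. All 3 pairs were lower by -0.16 to -0.36 on the log2 scale, the groups overlapped, and the mean of -0.23 did not pass (95% interval -0.90 to 0.43, paired adjusted p = 0.672).

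None of the other CDK inhibitors passed with all 6 arrays. CDKN1B, the p27 gene and the closest relative of CDKN1A among the members, read 954.2, 1264.5 and 1394.1 on controls and 498.5, 1542.5 and 1592.0 after 8-Br-cAMP. The treated array was lower in pair 1 (log2 difference -0.94) and higher in pairs 2 and 3 (0.29 and 0.19), and 8-Br-cAMP 1 was the lowest of all 6. The mean was -0.15 (95% interval -0.82 to 0.52, paired adjusted p = 0.794). On arrays 2 and 3 alone the sign turned (0.24, adjusted p = 0.122). CDKN2A encodes the INK4 inhibitor p16 and, from another reading frame, ARF, an activator of the p53 pathway, and the files do not say which product a probe set reads. Probe set 209644_x_at read 724.0, 846.4 and 800.6 on controls and 618.5, 684.2 and 642.4 after 8-Br-cAMP. Every treated value was below every control value, at a small log2 difference of -0.28 (95% interval -0.73 to 0.16, paired adjusted p = 0.43). Its suffix _x_at marks probes that can share sequence with other transcripts. Probe set 207039_at read 191.7, 205.4 and 247.1 on controls and 243.8, 157.2 and 142.5 after 8-Br-cAMP, higher in pair 1 (0.35) and lower in pairs 2 and 3 (-0.39 and -0.79). Its mean was -0.28 (paired adjusted p = 0.619). It passed on arrays 2 and 3 alone (-0.59, adjusted p = 0.0418), in the fit that called 30.8% of all probe sets. The third, 211156_at, was above the filter level on 2 of 6 arrays, ranged from 3.2 to 69.4 and was not tested.

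The number 1 arrays shaped several members and not others. Against the mean of numbers 2 and 3, CCND3 was higher by 1.57 on control 1 and by 2.12 on 8-Br-cAMP 1 on the log2 scale, and CDK4 was lower on both (-0.87 and -0.59). Both differences lay on the same side in the 2 groups, so they cancelled in part within pair 1. For CDK5 the figures were 0.29 and 1.34, and for CDKN1B -0.48 and -1.65, so these genes differed most on the treated array. CDKN1A, at 0.02 and -0.30, was moved less than CDK5. On arrays 2 and 3 alone 4 of the 11 probe sets passed without a block, CDKN1A higher and CDK5, CDK4 and CDKN2A (207039_at) lower, a share to be read against the 30.8% of all probe sets that passed there.

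**Figure D3:**
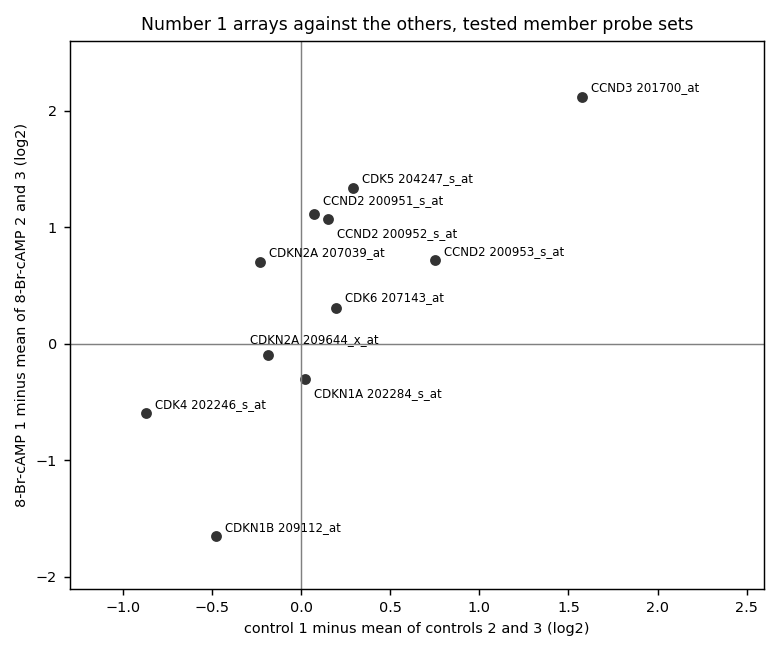
Each point is a tested member probe set, placed by the log2 signal of control 1 minus the mean of controls 2 and 3 (x axis) and of 8-Br-cAMP 1 minus the mean of 8-Br-cAMP 2 and 3 (y axis). CCND3 lies far out at 1.57 and 2.12, CDKN1B lies lowest at -1.65 on the y axis, and CDKN1A lies near the crossing of the axes.

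Over all 11 tested probe sets the median log2 difference was -0.24, and 10 of 11 were below 0, against a median of -0.13 and 61% below 0 over all tested probe sets. The median of all probe sets moved to -0.03 after quantile normalization, to 0.09 when arrays shared 1 median and to -0.50 when they were scaled on hybridisation spike-ins. The number of members below 0 was then 8, 7 and 10, and members below the median of all probe sets numbered 8 as deposited, 7 with quantile normalization and 8 under each of the other 2. CDKN1A was above 0 and CDK5 below 0 under all 4 scalings.

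Other genes of the G1 to S step are E-type and A-type cyclins with CDK2, the retinoblastoma family, E2F factors with their partners, and the ubiquitin ligase that removes CDK inhibitors. Of 38 such genes 33 were tested and 5 were below the filter, CDKN1C, CDKN2B and CDKN2D among them. In the paired fit 0 rose, 1 fell and 32 did not pass (3.03%, against 3.68% of all 7927 genes, each at its brightest probe set). The gene that fell was SKP2, the F-box protein that marks CDKN1B and CDKN1A for breakdown. It read 1581.9, 572.6 and 579.1 on controls and 564.4, 224.6 and 257.0 after 8-Br-cAMP. Each treated array was below its own control by a like amount (log2 differences -1.49, -1.35 and -1.17), and no treated value reached the lowest control value. The mean was -1.34 (95% interval -1.81 to -0.86, paired adjusted p = 0.0262, and 0.414 without the block). This is an _x_at probe set. A second tested probe set of SKP2 differed by -0.51 (paired adjusted p = 0.369). The list held 0 calls in the paired fit when both number 2 or both number 3 arrays were left out, under a common median and without the intensity trend. The median log2 difference of the 33 genes was 0.00, with -0.26, 0.21 and 0.10 in pairs 1, 2 and 3, against -0.14 over all genes. On arrays 2 and 3 alone the median was 0.11, and 6 of the 33 rose and 5 fell (33.3%), the same share as the 33.3% of all genes in that fit.

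Proteins that bind CDK5 and other CDKs and cyclins outside G1 made a list of 25, of which 19 were tested, 3 were below the filter and 3 had no listed probe set. In the paired fit 0 of the 19 passed, with 8 at an unadjusted p under 0.05 there (1773 of all 7927 genes), and without the block 0 passed with 3 at that level (947 of all). The median log2 difference was -0.30, against -0.14 over all genes, and 13 of 19 were below 0, against 4861 of 7927. The smallest paired p-values belonged to CCNT1, the cyclin of the elongation kinase CDK9, at 0.86 (adjusted p = 0.0928), CCNG1, a p53-induced cyclin G, at -0.76 (adjusted p = 0.117), and CDK13, an elongation kinase, at -0.55 (adjusted p = 0.166, log2 differences). The other tested CDK13 probe sets differed by -0.34 (adjusted p = 0.62) and -0.07 (0.903). CDK5R1, which encodes the CDK5 activator p35, is named here after its values were seen. It read 77.3, 77.8 and 72.4 on controls and 33.0, 51.1 and 32.9 after 8-Br-cAMP. The groups did not overlap, which held for 1578 of all 7927 genes. CDK5R1 was above the filter level of 45.5 on 4 of 6 arrays, with 8-Br-cAMP 1 and 3 below it, so its difference rests on dim treated signals. Its log2 difference of -0.99 did not pass (95% interval -1.91 to -0.08, paired adjusted p = 0.207). On arrays 2 and 3 alone 5 of the 19 rose and 4 fell (47.4%), against 33.3% of all genes in that fit, and CDK5R1 was not among them (adjusted p = 0.128).

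Since CDKN1A is a textbook target of p53, other p53 targets were set beside it. Of 27 genes 15 were tested, 5 were below the filter and 7 had no listed probe set. In the paired fit 1 rose, 0 fell and 14 did not pass (6.67%, against 3.68% of all genes). The gene that rose was AEN, which encodes an apoptosis-enhancing nuclease. It read 52.0, 56.0 and 65.5 on controls and 157.0, 186.8 and 207.9 after 8-Br-cAMP, without overlap. The rise was 3.17-fold (log2 difference 1.67, 95% interval 1.04 to 2.29, paired adjusted p = 0.0296, and 0.0993 without the block), with 1.59, 1.74 and 1.67 in the pairs. The list held 0 paired calls when both number 2 or both number 3 arrays were left out, and without the intensity trend. It also held 0 with the 60th percentile filter, but only 8 of its genes were tested there, AEN not among them. The median of the 15 was -0.21, against -0.14 over all genes, and 9 of 15 were below 0 (4861 of 7927 over all genes). On arrays 2 and 3 alone 2 of the 15 rose and 1 fell (20%), against 33.3% of all genes.

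**Figure D4:**
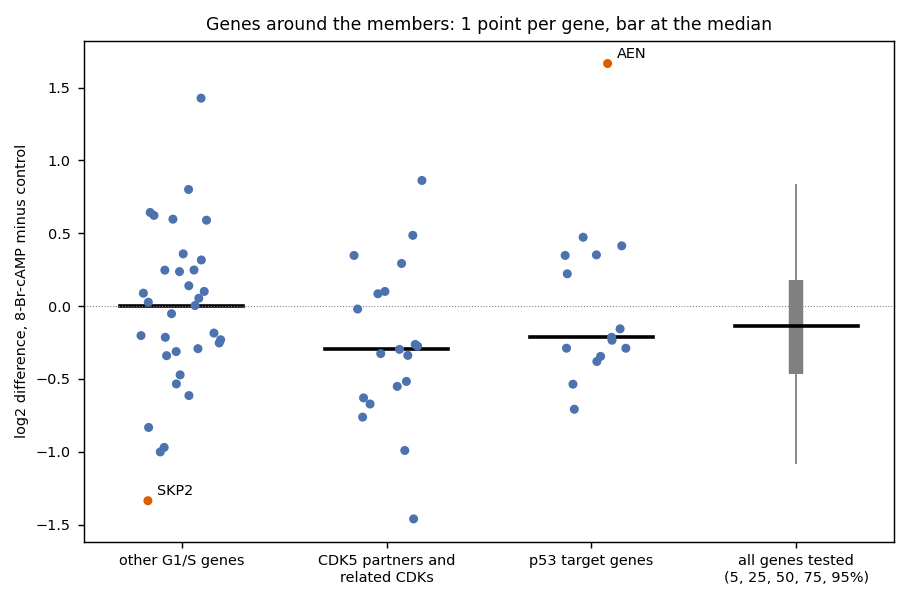
Log2 difference (8-Br-cAMP minus control) of the tested genes of the 3 lists, 1 point per gene at its brightest probe set, with a black bar at the median and orange for genes that passed the paired fit. The grey column gives the 5th to 95th and 25th to 75th percentiles of all 7927 genes, and SKP2 (-1.34) and AEN (1.67) are the 2 genes that passed.

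For the 2 members passing the paired fit, the genes most like them in log2 signal over the 6 arrays were named as a description. The highest of 7926 correlations on 6 arrays, which share depth scaling and groups, is high in any case. For CDKN1A these were FARP1 (Pearson r = 0.997), PPP2R2D, a regulatory subunit of PP2A (0.996), and AQP3, a water and glycerol channel (0.995). Their log2 differences were 1.26, 0.70 and 3.50. AQP3 read 16.1 to 26.4 on controls, all below the filter level, and 192.4 to 300.8 after 8-Br-cAMP, so it entered the test only through the treated arrays and its fold rests on dim controls. FARP1 passed the paired fit (adjusted p = 0.0231) and PPP2R2D did not (0.239). For CDK5 they were the CROCC pseudogene CROCCP2 (0.997), the antigen peptide transporter gene TAP1 (0.991) and the septin gene SEPTIN6 (0.991). Like CDK5 they were higher on 8-Br-cAMP 1 than on the other treated arrays, with log2 differences of -1.01, -0.98 and -0.73, and none passed the paired fit (adjusted p 0.0929 to 0.168).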

How the data were processed

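RNA of 6 samples was measured on Affymetrix arrays with 22277 probe sets. The values are signal intensity on a linear scale, made by the authors with GCOS 1.3 per the submitters' processing notes. Their 2% trimmed mean was 249.996 to 250.155 on each array, so no further scaling was made. Detection calls were not used here, and the number of arrays limits the precision. Groups and numbers came from the sample titles. After 62 array controls were left out, log2 signals were modelled in limma 3.58.1 under R 4.3.3 (eBayes with an intensity trend) over probe sets above the 40th percentile of mean log2 signal (5.51), with Benjamini-Hochberg adjustment over all 13329 and a threshold of 0.05. Genes were represented by their brightest probe set. The planned fit had no block. Deviations of same-numbered arrays correlated at 0.603, 0.378 and 0.538, all over 0.1, so the sample number was taken as a pairing that comes from the data, and the fit with the replicate block is the paired fit. Arrays of unlike number also correlated (control 3 with 8-Br-cAMP 2 at 0.547, control 2 with 8-Br-cAMP 3 at 0.312), so the data set number 1 apart from the rest and do not tell numbers 2 and 3 apart.

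Members and lists were chosen with earlier results of these data known. Named genes are all members, list genes that passed (otherwise the 3 smallest paired p), and the 3 genes most like each member that passed. CDK5R1 falls outside this rule and was named after its values were seen. Platform annotation gave 1 symbol for 19064 probe sets, several for 1043, and does not list 2108. Alternatives covered scaling, filters, a floor, a pseudocount of 16, the variance model and arrays left out, each also with the block. The fits were tested on simulated data.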

Additional observations from a re-analysis of the deposited data

How the results depend on the processing

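The arrays' number and the low signals of CCND1 limit what can be seen. Of the members, the directions of CDKN1A and CDK5 held in all 12 settings with the replicate block and all 18 without it. Signs also held for CDK4, CDK6, CCND2 probe sets 200951_s_at and 200953_s_at, and the tested CDKN2A probe sets, in every setting that tested them. CDKN1A ran from 1.81 to 2.40 and CDK5 from -2.14 to -1.37 (log2 differences). Against 0 calls without the block, the replicate block gave 2 member probe sets, 428 of all probe sets, 1 other G1/S gene and 1 p53 target. It changed no other call of a member. Combined with the block, calls of members and of all probe sets were 1 and 337 with quantile normalization, 1 and 142 with a common median, 2 and 1064 on spike-ins, 2 and 406 with no filter, 2 and 440 with the 60th percentile filter, 2 and 481 with a floor, 2 and 548 with the pseudocount, and 1 and 81 without a trend. In these fits the G1/S list held 0 to 2 calls, the p53 list 0 or 1, and the CDK5 list 0 except 1 on spike-ins. Without the block, members and all probe sets numbered 1 and 17 with quantile normalization and likewise with a common median, 0 and 14 on spike-ins, 1 and 18 with the 60th percentile filter, 1 and 28 with the floor and likewise with the pseudocount, and 0 and 1 in the unmoderated test. The series' selection, applied to the p-values of the planned fit, took 2 members, 880 probe sets, 2 G1/S genes and 1 p53 target. With 1 array or both arrays of a number left out, with and without the block, calls ran from 0 to 5 for members, 0 to 4680 for all probe sets, 0 to 15 for the G1/S list, 0 to 11 for the CDK5 list and 0 to 3 for the p53 list. Without a block, members were 2 and all probe sets 285 without 8-Br-cAMP 1, 1 and 58 without control 1, and 0 without any of the other 4 arrays. Signs turned for 3 members that did not pass. CCND2 (200952_s_at) was 0.13 with quantile normalization and 0.12 with a common median, and ran from -0.47 to 0.23 with arrays left out. CCND3 was 0.15 and 0.21, and ran from -0.72 to 0.51. CDKN1B was 0.073 with a common median, and ran from -0.44 to 0.40. The cause was not tested.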
